A study of Mus musculus with 6 samples.

Results

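The sodium pump beta subunit genes *Atp1b1*, *Atp1b2* and *Atp1b3* were followed in pools of injured mouse spinal cord motor neurons, 3 of the 53858 genes in the count table. They were chosen by gene name, with their measured levels in the comparison described here already known, so every difference between the groups given for these 3 genes is a description without a test. All animals were wild type and had a crush of the sciatic nerve, and cells were collected on day 6. The dye DiO, placed proximal to the injury on day 0, back-filled the injured motor neurons, and DiI, placed distally on day 2, reached those whose regrowing axons arrived there first. The study made 3 pools with DiO but no DiI (DiO-only pools) and 3 with both dyes (double-labelled pools), each of 10 to 15 picked cells. No uninjured group was analysed here. The labels do not give strain, sex or age, and do not say that pools came from separate animals, so the spread between pools may be technical.

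The sodium pump exports sodium and imports potassium at the cost of ATP, and it restores the ion gradients that action potentials and sodium-coupled transport run down. Each pump pairs a catalytic alpha subunit with a glycosylated beta subunit, which the alpha subunit needs to leave the endoplasmic reticulum and which tunes its affinity for ions. In nervous tissue the beta 1 isoform, from *Atp1b1*, is the main neuronal one. The beta 2 isoform, from *Atp1b2*, is also called adhesion molecule on glia and is typical of astrocytes, and the beta 3 isoform, from *Atp1b3*, is found in many tissues. The catalytic subunits were not analysed here.

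The 3 genes lie on separate chromosomes of mm10 (GRCm38), all on the minus strand. *Atp1b1* (ENSMUSG00000026576) spans chr1:164437109-164458355, *Atp1b2* (ENSMUSG00000041329) chr11:69599736-69605942 and *Atp1b3* (ENSMUSG00000032412) chr9:96332655-96364442. Their longest coding transcripts have 6, 7 and 7 exons and encode 304, 290 and 278 residues. The coding sequences are paralogous but far apart: 64.0% of aligned bases were the same between *Atp1b1* and *Atp1b2*, 60.8% between *Atp1b1* and *Atp1b3* and 60.5% between *Atp1b2* and *Atp1b3*. The longest identical stretch between any pair of main transcripts had 19 bases.

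RefSeq promoter windows (GRCm38.p6, 250 bases before to 50 after the start, given 5′ to 3′ on the gene's strand) were matched for 2 of the 3 genes, *Atp1b1* at chr1:164458306-164458605 and *Atp1b3* at chr9:96364382-96364681. They are shown because these genes stood far apart in level in every library. Capitals mark matches on either strand to the GC box GGGCGG, the CCAAT box CCAAT and the TATA-like run TATATA.
Atp1b1: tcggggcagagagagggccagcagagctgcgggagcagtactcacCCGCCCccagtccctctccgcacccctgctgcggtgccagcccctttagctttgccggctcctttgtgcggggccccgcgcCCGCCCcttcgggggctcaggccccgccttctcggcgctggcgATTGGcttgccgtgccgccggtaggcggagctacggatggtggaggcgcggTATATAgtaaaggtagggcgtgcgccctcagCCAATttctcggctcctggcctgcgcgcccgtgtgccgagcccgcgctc
Atp1b3: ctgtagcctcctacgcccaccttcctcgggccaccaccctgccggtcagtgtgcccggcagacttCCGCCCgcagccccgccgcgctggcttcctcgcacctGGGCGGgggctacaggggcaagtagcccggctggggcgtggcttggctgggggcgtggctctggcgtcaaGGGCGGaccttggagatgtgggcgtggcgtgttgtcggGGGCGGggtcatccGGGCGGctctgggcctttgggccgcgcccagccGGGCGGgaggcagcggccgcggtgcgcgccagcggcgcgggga
Both windows are rich in G and C, at 71.0% and 76.0%, against a median of 52.7% over 32817 windows. The *Atp1b1* window holds 2 GC boxes, 2 CCAAT boxes and 1 TATA-like run, and the *Atp1b3* window holds 6 GC boxes and neither of the other motifs. Of all windows, 35.6% hold a GC box, 37.4% a CCAAT box and 5.67% the TATA-like run. These are matches of letters and not measured sites.

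The libraries held 2997714 to 6563403 counts. Motor neuron transcripts were present in each of the 6 libraries, and all 11 motor neuron markers looked for were detected in every one. *Isl1*, a transcription factor of motor neurons, stood at 28.7 to 35.7 and 16.5 to 34.3 CPM in DiO-only and double-labelled pools. *Chat*, which makes acetylcholine, ranged from 59.6 to 102 CPM (counts scaled to library size with TMM factors) in DiO-only pools and from 89.8 to 142 CPM in double-labelled pools. The first principal component, 33.8% of the variance, put double-labelled pools 1 and 3 at opposite ends, with scores of 123 and -64.0, and the other 4 libraries between -32.2 and 0.23. For *Atp1b2*, values without either of these pools are given beside the results.

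*Atp1b1* was by far the most abundant beta gene and differed little between the groups. It stood at 1439, 2564 and 1694 CPM in DiO-only pools 1, 2 and 3, and at 1733, 2295 and 2249 CPM in double-labelled pools 1, 2 and 3. The groups overlapped, and the highest and the lowest library were both DiO-only pools. The means were 1899 ± 590 and 2092 ± 312 CPM (SD, n = 3), a log2 fold change of 0.14 ± 0.34 (SE) for double-labelled against DiO-only pools. The sign depended on the libraries: without DiO-only pool 1 the log2 fold change was -0.04, and without DiO-only pool 2 it was 0.42. Per kilobase of exon, the scale on which genes can be set side by side, *Atp1b1* ranked between 39 and 82 of the 12954 tested genes in each library.

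The *Atp1b1* gene overlaps a neighbour, which could affect its count. *Nme7*, of a nucleoside diphosphate kinase family protein, runs on the plus strand and shares 575 exon bases with the 3′ end of *Atp1b1*. Its counts were 5301, 6143 and 6467 in DiO-only pools and 5739, 4828 and 11007 in double-labelled pools, which is 53.8 to 80.0% of the *Atp1b1* counts of the same library. Whether the counting used strand is not given in the sources used here, nor is the treatment of reads in the overlap, so whether either count holds reads of the other gene was not tested. As 1 possible case, with every *Nme7* count taken away from *Atp1b1*, 1443 to 5775 counts were left per library, and *Atp1b1* was still 3.88 to 9.0 times *Atp1b3* per kilobase.

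*Atp1b2* was the beta gene that set the groups apart. Counts of 27, 18 and 30 in DiO-only pools compared with 254, 52 and 743 in double-labelled pools. On the CPM scale this was 3.94, 6.01 and 5.16 against 52.2, 19.0 and 99.6. Every double-labelled pool was above every DiO-only pool, but the double-labelled pools also differed widely among themselves. As a description of depth, the exact 95% Poisson interval ran from 3.56 to 9.50 CPM in the highest DiO-only pool and from 14.2 to 24.96 CPM in the lowest double-labelled pool. Such intervals cover the counting of reads only and are too narrow for molecules, since amplified reads without molecular identifiers are not independent. In bulk pools, more cells of a type and more RNA per cell cannot be told apart.

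The group means of *Atp1b2* were 5.04 ± 1.04 and 56.9 ± 40.5 CPM (SD, n = 3), a ratio of 11.3 and a log2 fold change of 3.51 ± 0.61 (SE). Without double-labelled pool 3 the ratio of means was 7.07, without double-labelled pool 1 it was 11.8, and without double-labelled pool 2 it was 15.1. The coefficient of variation was 20.7% among DiO-only pools and 71.1% among double-labelled pools. *Atp1b2* was the only member whose groups did not overlap with higher values in double-labelled pools, which 5.86% of the 12954 tested genes did, and 7.07% did so with lower values. With edgeR's quasi-likelihood test, 0% of the tested genes passed an adjusted p of 0.05 and 5.81% had an unadjusted p under 0.05. Nothing is read from the members' counts against these shares, since the members were picked on this comparison.

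*Atp1b3* lay between the other two in level and had overlapping groups. It stood at 57.3, 63.5 and 87.8 CPM in DiO-only pools and at 111, 73.9 and 122 CPM in double-labelled pools. Double-labelled pools 1 and 3 were above every DiO-only pool, and double-labelled pool 2 was inside the DiO-only range. The means were 69.5 ± 16.1 and 102 ± 24.96 CPM (SD, n = 3), a log2 fold change of 0.56 ± 0.34 (SE). It ranged from 0.40 without double-labelled pool 3 to 0.75 without DiO-only pool 3.

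**Figure D1:**
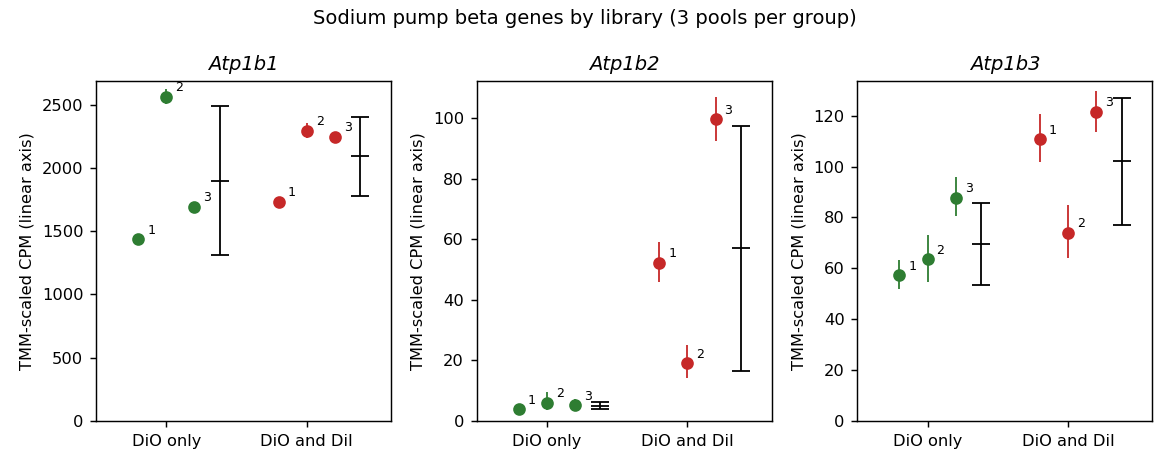
TMM-scaled CPM (linear axes from 0, a separate scale for each gene) of the 3 beta genes in each library. Dots are pools with their number and the exact 95% Poisson interval of the count, and black bars are the mean ± SD of 3 pools. *Atp1b2* stands at 3.94 to 6.01 CPM with DiO alone and at 19.0 to 99.6 CPM with both dyes, while the groups of *Atp1b1* and *Atp1b3* overlap.

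Per kilobase of exon the order was the same in all 6 libraries, with *Atp1b1* first, *Atp1b3* next and *Atp1b2* last. In DiO-only pools the levels were 616 ± 192, 29.1 ± 6.75 and 1.23 ± 0.255 CPM per kilobase (SD, n = 3). In double-labelled pools they were 679 ± 101, 42.7 ± 10.4 and 13.9 ± 9.91 CPM per kilobase. The ranges of neighbouring genes in this order did not overlap within either group. The distance between *Atp1b1* and *Atp1b2* was nevertheless uneven. *Atp1b1* was 484, 565 and 436 times *Atp1b2* in DiO-only pools 1, 2 and 3, and 44.0, 160 and 29.9 times in double-labelled pools 1, 2 and 3. The log2 ratio of *Atp1b2* to *Atp1b1* was -8.94 ± 0.19 and -5.90 ± 1.27 (SD, n = 3), with no overlap. The difference of 3.05 was 2.83 without double-labelled pool 1 and 2.55 without double-labelled pool 3. A ratio within a library does not depend on how libraries are scaled, and this one carries the same difference as the *Atp1b2* level.

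As shares of the summed per-kilobase level of the 3 genes, *Atp1b1* made up 95.1 ± 1.61% of the DiO-only level and 92.2 ± 2.81% of the double-labelled level (SD, n = 3). *Atp1b3* made up 4.74 ± 1.59% and 5.91 ± 1.78%, with overlapping groups. *Atp1b2* made up 0.194 ± 0.0219% and 1.89 ± 1.22%, from 0.597% in double-labelled pool 2 to 3.03% in pool 3. Its double-labelled mean was 1.81% without pool 1 and 1.33% without pool 3, and that of *Atp1b3* was 5.14% and 5.71%. The mean of *Atp1b1* was 93.0% without either of these pools in turn. The sum itself was 647 ± 191 and 736 ± 99.6 CPM per kilobase, so the beta message was mostly *Atp1b1* in every library and its total overlapped between the groups. With the counts of *Nme7* taken away from *Atp1b1*, the shares of *Atp1b1* were 86.2% and 78.3%, and those of *Atp1b2* 0.571% and 5.02%.

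**Figure D2:**
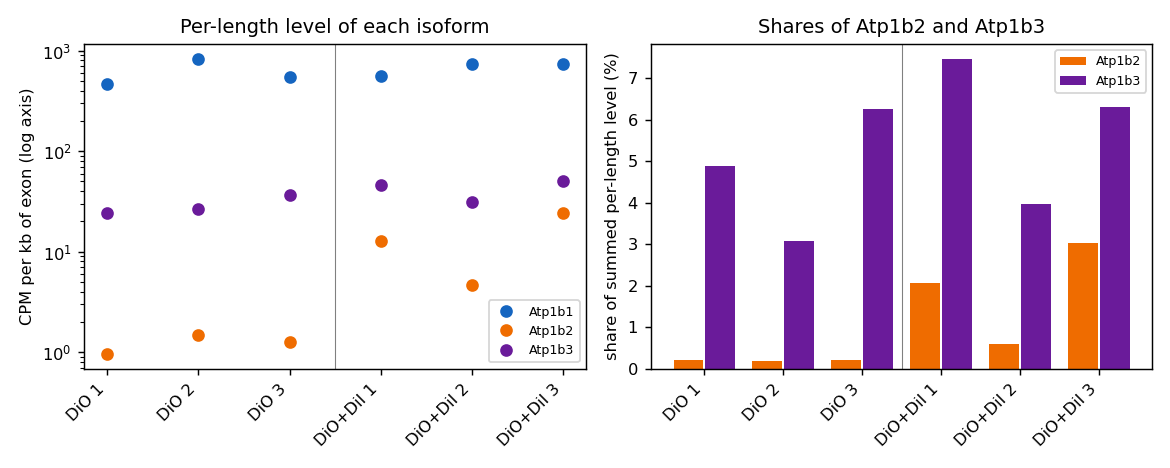
Left, level of each beta gene in CPM per kilobase of exon on a log axis, for 3 DiO-only and 3 double-labelled (DiO+DiI) libraries. Right, the share of the summed level held by *Atp1b2* and *Atp1b3* in each library, on a linear axis from 0. *Atp1b2* holds 0.171 to 0.215% in DiO-only and 0.597 to 3.03% in double-labelled pools.

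Markers of astrocytes and oligodendrocytes moved with *Atp1b2*. Of 16 astrocyte markers 14 were tested and 12 of these were higher in double-labelled pools. Of the 14, 8 were higher without overlap, against 5.86% of all tested genes. The median log2 fold change was 2.29, against 0.02 over all tested genes. *Slc1a2*, the main astrocytic glutamate transporter, stood at 10.7, 15.0 and 14.3 CPM in DiO-only pools and at 93.3, 39.9 and 84.7 CPM in double-labelled pools. *Aqp4*, the astrocytic water channel, stood at 3.94, 1.00 and 8.76 and at 31.0, 17.6 and 32.4 CPM. For both genes, as for *Atp1b2*, double-labelled pool 2 was the lowest of its group. *Gfap*, of the astrocyte intermediate filament, overlapped, at 5.84, 1.34 and 31.1 against 22.6, 8.05 and 123 CPM, and its log2 fold change of 1.99 was 0.25 without double-labelled pool 3 and 3.75 without DiO-only pool 3.

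Not every astrocyte marker took part. *Slc1a3*, a second defining glutamate transporter of astrocytes, was at or near 0, with 0 to 28 counts in DiO-only and 0 to 2 in double-labelled pools. The summed level of the 16 markers overlapped, from 928 to 1326 CPM in DiO-only pools and from 1135 to 2444 CPM in double-labelled pools, and most of it came from *Aldoc* and *S100b*. The sum of the other 14 was 72.5, 77.5 and 188 CPM in DiO-only pools and 384, 183 and 531 CPM in double-labelled pools, so that DiO-only pool 3 was above double-labelled pool 2 while its *Atp1b2* was not. Up to 4 of the 16 markers had 0 counts in a library. *Atp1b2* stood at 36.1 to 40.0% of the *Slc1a2* counts in DiO-only pools and at 55.9%, 47.7% and 118% in double-labelled pools.

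Oligodendrocyte markers were also higher, with 12 of 12 tested genes up and 10 of them without overlap, against 5.86% of all tested genes. Their summed level was 289 to 584 CPM in DiO-only and 1472 to 4949 CPM in double-labelled pools. *Mbp*, of myelin basic protein, stood at 143 to 397 and 807 to 3909 CPM. Of 13 such markers at most 2 had 0 counts in a library. The tested microglia markers did not share this direction. Of 9 such markers 4 were tested, and all 4 had lower values in double-labelled pools, with a median log2 fold change of -0.61 and 0 calls with edgeR. Of the 4, 1 was lower without overlap, against 7.07% of all tested genes. It was *Csf1r*, of a growth factor receptor of microglia, at 23.8, 28.4 and 27.7 against 16.6, 14.6 and 15.4 CPM. The 9 markers summed to 82.9 to 86.3 and 48.7 to 111 CPM, with *C1qa*, a complement gene of microglia, at 0 to 8.71 CPM over all libraries and too low for the test. Of the untested markers, *Trem2* had a lower mean in double-labelled pools. *C1qa*, *Cx3cr1*, *P2ry12* and *Tmem119* had higher means there, each highest in double-labelled pool 3, at 8.71, 10.3, 8.84 and 9.51 CPM. Motor neuron markers summed to 22351 to 42957 CPM in DiO-only and 29519 to 35949 CPM in double-labelled pools, mostly from the filament genes *Nefl*, *Nefm*, *Nefh* and *Prph*. Of the 11 motor neuron markers 6 were higher and 5 lower. Among them 1, *Chodl*, was higher without overlap, against 5.86% of all tested genes. The part of astrocyte or oligodendrocyte RNA in the *Atp1b2* level was not tested.

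**Figure D3:**
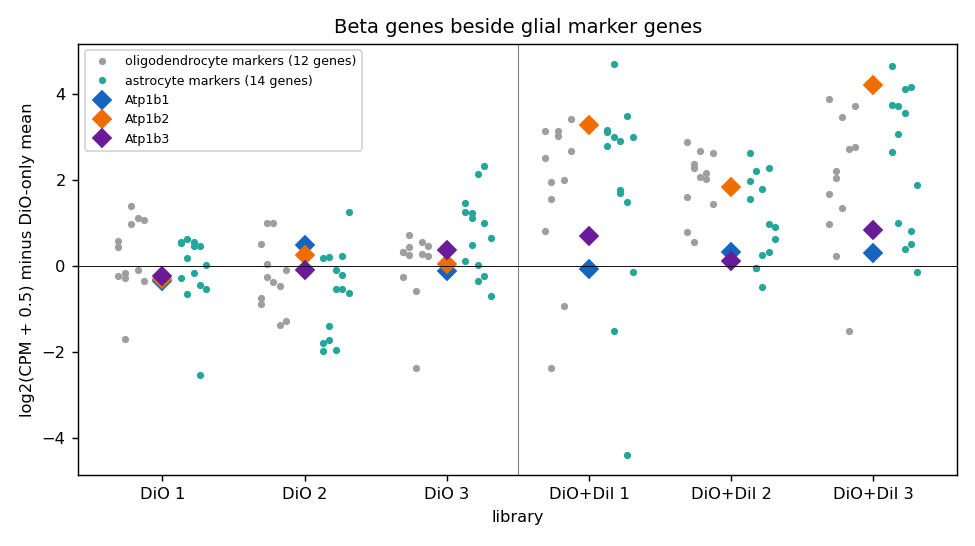
Level of each gene in each library as log2(CPM + 0.5) minus its mean over the DiO-only pools. Diamonds are the beta genes, grey dots 12 oligodendrocyte markers and teal dots 14 astrocyte markers, spread sideways for legibility. *Atp1b2* lies among the glial markers in the double-labelled (DiO+DiI) libraries, and *Atp1b1* and *Atp1b3* lie nearer to 0.

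Each beta gene had different nearest neighbours when 10780 other genes with a mean of at least 5 CPM were ordered by the likeness of their profile over the 6 libraries. Likeness was the root mean square difference of gene-centred log2 CPM, and small values mean alike. Nearest to *Atp1b1* were *Tmem30a* (0.06), *Ric3* (0.07), *Sel1l3* (0.09) and *Copb2* (0.09). *Tmem30a* encodes the accessory subunit of phospholipid flippases, *Ric3* a chaperone of acetylcholine receptors and *Copb2* a coatomer subunit. Nearest to *Atp1b2* were the myelin gene *Mobp* (0.35), the astrocyte membrane protein gene *Mlc1* (0.46), the glial receptor gene *Gpr37l1* (0.56) and *Slc1a2* (0.56). Nearest to *Atp1b3* were *Gga3* (0.10), of a trans-Golgi sorting adaptor, *Ube2q2* (0.11), of a ubiquitin-conjugating enzyme, the lysosomal transcription factor gene *Tfe3* (0.12) and *Strn4* (0.13). *Atp1b2* had more distant neighbours than the other 2 genes. The measure is not scaled for how much a gene varies, so nothing further is read from this. With so many genes and 6 libraries, near profiles are found readily, and the likeness is a description.

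Among genes linked to the pump, 78 were listed, 56 had enough counts for the test, and 0 passed in either direction with edgeR (smallest adjusted p = 0.308). At an unadjusted p under 0.05 there were 10 of the 56, against 5.81% of all tested genes. Of the 10, 4 were in the list of MLC1 and GlialCAM with partners and 3 in that of sodium gradient users, both described below. Both lists share genes with the astrocyte markers. DESeq2, run on all genes with any count and with its own default filtering, called 3, *Slc1a2*, *Kcnj10* and *Mlc1*. Without its filter on low counts, edgeR called *Slc1a2* and *Kcnj10*. All of these were higher in double-labelled pools.

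The FXYD proteins are small membrane proteins that bind the pump and adjust its kinetics. Of 7 genes 6 were tested, 4 higher and 2 lower, with a median log2 fold change of 0.40 that turned to -0.59 when 10 counts in 5 libraries were required and to -0.33 without double-labelled pool 2, and was 0.21 without DiO-only pool 2, 0.07 without DiO-only pool 1 and 1.28 without DiO-only pool 3. Among the 6, *Fxyd1* and *Fxyd6* were higher without overlap, against 5.86% of all tested genes. *Fxyd7*, the brain form, dominated the family on the CPM scale in every library, at 722, 1903 and 722 CPM in DiO-only pools and 440, 1252 and 519 CPM in double-labelled pools. Pool 2 was the highest of both groups, and the groups overlapped (log2 fold change -0.60 ± 0.49, SE; edgeR adjusted p = 0.962), with 0.04 in place of -0.60 when DiO-only pool 2 was left out. *Fxyd5*, of dysadherin, a regulator tied to cell adhesion, stood at 24.7, 61.1 and 16.5 against 9.66, 30.4 and 9.11 CPM. *Fxyd1*, of phospholemman, stood at 1.46, 6.68 and 1.03 against 11.1, 11.3 and 6.97 CPM, without overlap (edgeR adjusted p = 0.899). *Fxyd4* stood at 0.584 to 8.76 and 2.93 to 5.63 CPM, and *Fxyd2*, the kidney gamma subunit, was too low for the test.

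The NKAIN proteins are neuronal membrane proteins that bind the beta 1 subunit. Of 4 genes 3 were tested. *Nkain3* stood at 32.2, 26.1 and 21.3 CPM in DiO-only pools and at 17.3, 10.6 and 10.2 CPM in double-labelled pools. It was lower without overlap, as were 7.07% of all tested genes, and failed the threshold (log2 fold change -1.06 ± 0.48, SE; edgeR adjusted p = 0.847). For *Nkain2* and *Nkain4* the groups overlapped, at log2 fold changes of 0.80 and 0.48, and both values moved when a library was left out. *Nkain2* was at 0.34 without double-labelled pool 2. *Nkain4* ranged from -0.26 without double-labelled pool 2 to 1.32 without DiO-only pool 2, and was -0.04 without DiO-only pool 3, 1.07 without double-labelled pool 3, -0.15 with the replicate block and -0.06 with limma voom. The related beta genes *Atp1b4*, of a muscle protein, and *Atp4b*, of the gastric proton pump, were nearly silent, with 14 counts in 1 library and none in any, so *Atp1b1*, *Atp1b2* and *Atp1b3* were the beta genes measured here.

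Genes for transport that runs on the sodium gradient were mostly on the higher side. Of 20 listed 14 were tested and 12 were higher, 3 without overlap, against 5.86% of all tested genes. The median log2 fold change was 0.67, against 0.02 over all tested genes. The median was 0.38 without double-labelled pool 2. They include *Slc1a2* and *Slc4a4*, which are also in the astrocyte list above. *Slc24a2*, of a sodium, calcium and potassium exchanger of neurons, stood at 300 to 646 and 329 to 620 CPM. *Slc5a7*, of the choline transporter of cholinergic terminals, stood at 143 to 290 and 277 to 534 CPM. *Slc8a3*, of a sodium-calcium exchanger, stood at 31.96 to 63.8 and 38.5 to 72.5 CPM. These 3 genes, among the most abundant of the list, had overlapping groups (edgeR adjusted p = 0.996, 0.885 and 0.987).

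MLC1 and GlialCAM are astrocyte membrane proteins reported to bind the beta 1 subunit, and their list with junction and channel partners had the largest median of the pump-linked lists, 2.63. Of 8 genes 6 were tested, 5 higher and 4 of these without overlap, against 5.86% of all tested genes. They were *Mlc1*, *Gja1*, *Aqp4* and *Kcnj10*. All but *Kcnj10* are also in the astrocyte list above, so these lists are not independent. *Kcnj10*, of the inward rectifier that clears potassium in astrocytes, stood at 6.42, 1.67 and 2.41 CPM in DiO-only pools and at 39.0, 13.9 and 31.8 CPM in double-labelled pools (log2 fold change 2.97 ± 0.69, SE; edgeR adjusted p = 0.444). Its order among double-labelled pools put pool 2 lowest, as for *Atp1b2*. *Clcn2*, of a chloride channel, and *Dag1*, of dystroglycan, which neurons express too, overlapped between groups, with log2 fold changes of -0.02 and 0.57, and *Clcn2* was at 0.001 under RLE scaling. *Clcn2* was at 0.37 without DiO-only pool 3 and 0.10 without double-labelled pool 1. *Dag1* ranged from 0.31 without double-labelled pool 1 to 1.07 without DiO-only pool 2.

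The calcium pumps belong to the same enzyme superfamily as the catalytic subunits of the sodium pump. Their differences were smaller than that of *Atp1b2*, which was picked with its difference known. Of 9 calcium pump genes 6 were tested, 5 higher and 1 lower, with a median log2 fold change of 0.36, which was 0.17 without double-labelled pool 2, 0.19 without double-labelled pool 3 and 0.56 without DiO-only pool 2. *Atp2b1*, a plasma membrane calcium pump, stood at 435, 606 and 381 CPM against 373, 308 and 267 CPM. It was lower without overlap, as were 7.07% of all tested genes (edgeR adjusted p = 0.885). *Atp2a2*, of the endoplasmic reticulum, stood at 274 to 453 and 337 to 606 CPM, *Atp2b2* at 497 to 649 and 529 to 771 CPM, and *Atp2b4* at 27.3 to 104 and 32.9 to 221 CPM. The groups of these 3 overlapped.

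Phospholipid flippases also need an accessory subunit to leave the endoplasmic reticulum. Of 13 listed genes 9 were tested, with a median of 0.11 (-0.05 without DiO-only pool 1, 0.02 and 0.05 without double-labelled pools 3 and 2, and 0.23 without DiO-only pool 2). Among the 9, *Atp8b2* and *Atp11b* were higher without overlap, against 5.86% of all tested genes, and both encode flippase catalytic subunits. The accessory subunit gene *Tmem30a* stood at 413 to 697 and 458 to 644 CPM. *Atp8a1*, *Atp8a2* and *Atp9a*, which encode flippase catalytic subunits or their relatives, had log2 fold changes of 0.14, -0.14 and -0.21, and their groups overlapped. The last was 0.10 without DiO-only pool 2. Kinases and membrane skeleton genes that act on or anchor the pump had 6 higher and 6 lower of 12 tested, with a median of 0.02 that took either sign as single libraries were left out, from -0.07 to 0.24. Among the 12, the kinase genes *Sgk1* and *Wnk1* were higher without overlap, against 5.86% of all tested genes. The anchors *Ank2*, *Ank3*, *Sptan1* and *Sptbn1*, of ankyrins and spectrins, had log2 fold changes of 0.06, -0.36, -0.07 and -0.03, none without overlap, and *Sptbn1* was at 0.04 under total-count scaling. Leaving out 1 library moved them further: *Sptbn1* and *Sptan1* were at 0.23 and 0.14 without DiO-only pool 2. *Ank2* was at -0.07 without DiO-only pool 1 and -0.04 without double-labelled pool 3. *Ank3* was at -0.14 without double-labelled pool 1 and -0.76 without double-labelled pool 3.

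**Figure D4:**
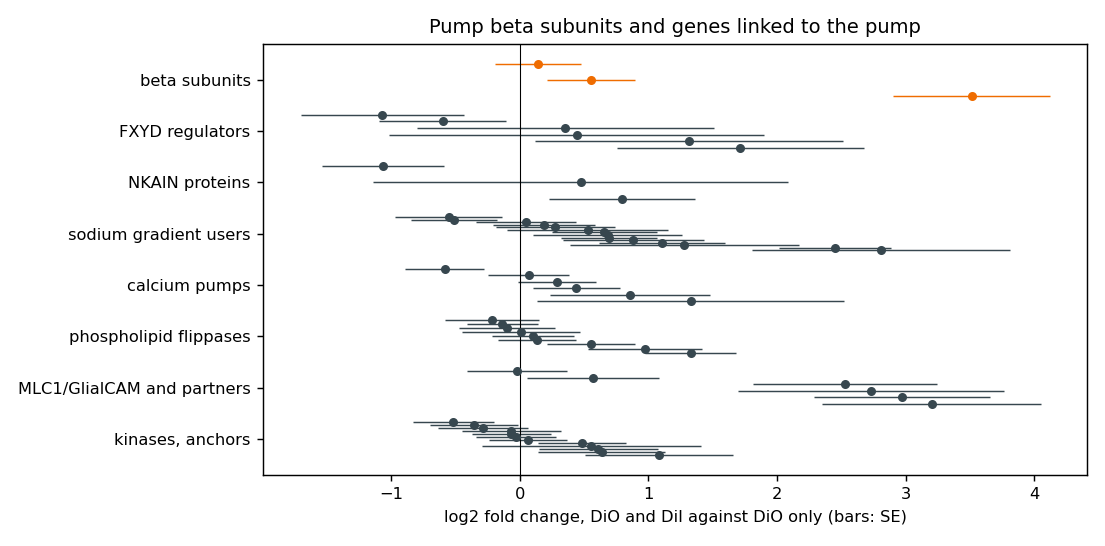
Log2 fold change of double-labelled against DiO-only pools, with its SE from edgeR, for the 3 beta genes (orange) and the tested genes of each list (dark). *Atp1b2*, picked with its difference known, is at 3.51 ± 0.61, higher than each pump-linked gene plotted. The next is *Mlc1* at 3.20 ± 0.85. The astrocyte markers, not all plotted here, include 2 genes with a higher value than *Atp1b2*.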

How the data were processed

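RNA was measured in 6 libraries of picked, dye-labelled motor neurons. Per the labels' protocols, cDNA came from 20 PCR cycles of the SMART-Seq HT kit, and 3 batches are mentioned without saying which libraries each held, so no within-batch value was computed. The deposited values are whole-number read counts per Ensembl gene, with no normalisation. The tools named in the submitters' processing notes are HISAT2, HTSeq and FastQC, with build mm10. No version, annotation or strand setting is given there. The 6 single-library tables held the same counts as the series table. Gene positions, lengths (union of exons) and overlaps came from GENCODE M21, and promoters from RefSeq GRCm38.p6.

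Genes kept by filterByExpr (12954, with 99.2% of counts) were scaled with TMM and compared by group with edgeR 4.0.16's robust quasi-likelihood test in R 4.3.3, two-sided, with Benjamini-Hochberg adjustment over all of them. Each standard error was the fold change over the square root of F. Depth sets 3 counts at 0.457 to 1.00 CPM per library. The test was tried on simulated data. The members, lists and alternatives were chosen with earlier results of these data known. Of each list the up to 4 genes with the highest mean CPM were named, with the 4 nearest profiles per member, passing over predicted genes and the catalytic subunit genes, and *Chat*, *Isl1*, *Gfap*, *Aqp4*, *Slc1a2*, *Mbp* and *C1qa*. *Nme7*, *Csf1r*, *Slc1a3*, *Aldoc*, *S100b*, *Slc4a4*, *Mlc1*, *Gja1*, *Fxyd2*, *Fxyd6*, *Atp8b2*, *Atp11b*, *Sgk1*, *Wnk1*, *Atp1b4* and *Atp4b* were named after their values were seen. So were *Cx3cr1*, *P2ry12*, *Tmem119*, *Trem2*, *Nefl*, *Nefm*, *Nefh*, *Prph* and *Chodl*. Some listed genes are not reported here. Alternatives used DESeq2 1.42.0, limma 3.58.1 (voom with sample quality weights), other scalings, filters and gene lengths, a replicate block and each library left out. Figures were drawn with matplotlib 3.10.9.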

Additional observations from a re-analysis of the deposited data

How the results depend on the processing

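The log2 fold changes of *Atp1b2* and *Atp1b3* kept their sign under every alternative run, and that of *Atp1b1* did except without DiO-only pool 1. Without 1 library they ran from -0.04 to 0.42 for *Atp1b1*, from 2.82 to 3.90 for *Atp1b2* and from 0.40 to 0.75 for *Atp1b3*, and over the other alternatives from 0.12 to 0.28, 2.98 to 3.62 and 0.37 to 0.58. Over all genes edgeR called 0, and 0 without any 1 library, but 79 with no filter on low counts and 23 with the replicate block, and DESeq2 called 75. Among genes linked to the pump, no filter gave 2 calls, DESeq2 gave 3 and the replicate block 0. Deviations from the group means correlated at 0.07, 0.23 and 0.20 between same-numbered pools, and the labels do not pair them. Each library correlated best with the one of its own number, but DiO-only pool 1 was close to double-labelled pool 3 too (0.02). Centring within groups of 3 ties these values to each other, so whether pools are paired was not tested. Under the block the members had log2 fold changes of 0.17, 3.29 and 0.55. With mean transcript length the DiO-only shares were 96.8% for *Atp1b1*, 0.219% for *Atp1b2* and 3.01% for *Atp1b3*, and *Atp1b3* held 3.77% in double-labelled pools. With coding length *Atp1b2* held 0.271% in DiO-only pools. These follow from the lengths alone. Taking *Nme7* counts away from *Atp1b1*, chosen after seeing the data, gave DiO-only and double-labelled shares of 86.2% and 78.3% for *Atp1b1*, 0.571% and 5.02% for *Atp1b2* and 13.3% and 16.6% for *Atp1b3*. Depth limits *Atp1b2* most, with 18 to 30 counts per DiO-only pool.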
